A study of Mus musculus with 9 samples.

Results

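The antigen presentation and interferon response genes described here are 45 of the 54532 genes in the count table, taken by gene symbol from a fixed list of MHC class I and class II genes, peptide-loading genes and interferon-induced genes. All 45 were found in the table, and 44 of them had enough counts to be among the 15909 genes compared between groups. The antiviral GTPase gene Mx1, at 0.316, 0.193, 0.400 and 0.192 CPM in control mice 1 to 4 and 0, 0.109, 0.364, 0.481 and 0.185 CPM in ELA mice 1 to 5, was removed by the filter on low counts. CPM stands for counts relative to the size of the library, with TMM factors applied, and all CPM values are listed in this order of mice.

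Enamel organs, the epithelial tissue that makes tooth enamel, were dissected from the first molars of male pups at postnatal day 12, and their RNA was sequenced with 1 library per mouse. All 9 pups, controls included, had the C57BL/6 background and were born to Crh-IRES-Cre +/+ dams mated with Ai14 tdTomato males, so that they carried a Cre driver for cells that express corticotropin-releasing hormone together with a tdTomato reporter. The early life adversity (ELA) group of 5 pups was raised from postnatal day 2 to 12 with little bedding and nesting material, a model that disturbs maternal care, and the 4 control pups were raised in standard cages. The comparison asks whether gene expression in the enamel organ differed after adversity.

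MHC class II molecules are chain pairs on B lymphocytes, dendritic cells and activated macrophages that show peptides from engulfed proteins to helper T cells, and their genes are switched on together by the coactivator Ciita. MHC class I molecules are on nearly all nucleated cells and show peptides that the proteasome cuts inside the cell. Interferons are antiviral signal proteins whose receptors act through STAT and IRF transcription factors to raise both presentation routes and a large set of antiviral genes.

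The promoter sequences show the short elements through which these groups of genes are known to be controlled, and they are printed for 2 class II genes and 2 antiviral genes that are described later. Of the 45 members, 37 had at least 1 promoter of 300 bases (250 before to 50 after the start) in the RefSeq table for GRCm38.p6, with 44 promoters in all. On either strand, the letters TGATTGG, the core of the class II Y box, were found in 25.0% of the 44 promoters and in 7.82% of all 32851 promoters. They stood in 3 of 4 class II genes, 3 of 4 class I genes and 0 of 14 genes of RNA sensors and antiviral effectors that had a promoter. The letters GAAANNGAA, a core of the interferon-stimulated response element (ISRE), were found in 40.9% of the members' promoters and 8.56% of all promoters, in 10 of 14 sensors and effectors, in 5 of 5 interferon-induced GTPases and in 0 of 4 class II genes. The letters TTCNNNGAA, the STAT site GAS, were found in 20.5% and 8.3%, respectively, and can overlap an ISRE core. A match of letters is a description and not a bound site.

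The 150 bases before the start are shown 5′ to 3′ on the gene's strand, with the Y box core in capitals in H2-Aa (chr17:34287824-34287973, minus strand, with the core 50 bases upstream of the start) and H2-Eb1 (chr17:34305717-34305866, plus strand, 61 bases upstream). In Rsad2 (chr12:26456453-26456602, minus strand, 119 bases upstream, read on the opposite strand) and Isg15 (chr4:156200819-156200968, minus strand, 3 overlapping copies at 78, 72 and 66 bases upstream) the capitals mark the ISRE core.
H2-Aa: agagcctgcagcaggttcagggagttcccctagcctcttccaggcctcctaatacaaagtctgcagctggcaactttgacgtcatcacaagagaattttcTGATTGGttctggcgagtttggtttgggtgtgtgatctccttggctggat
H2-Eb1: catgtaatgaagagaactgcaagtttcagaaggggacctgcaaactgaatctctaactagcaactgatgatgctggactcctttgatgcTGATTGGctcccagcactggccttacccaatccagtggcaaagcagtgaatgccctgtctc
Rsad2: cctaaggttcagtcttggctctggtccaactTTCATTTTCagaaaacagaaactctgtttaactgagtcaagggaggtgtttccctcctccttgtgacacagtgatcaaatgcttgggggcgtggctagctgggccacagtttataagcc
Isg15: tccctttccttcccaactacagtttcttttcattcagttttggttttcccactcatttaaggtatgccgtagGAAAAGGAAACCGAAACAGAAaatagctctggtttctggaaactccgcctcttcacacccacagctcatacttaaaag

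Library totals were 18056774 to 32110160 counts in ELA and 18683431 to 20831736 in controls. The 7 ameloblast markers were all present, with a summed level of 78779 to 104321 CPM in controls and 104741 to 167739 CPM in ELA, and Amelx, which encodes the enamel matrix protein amelogenin, rose (log2 fold change 1.56, edgeR adjusted p = 0.0477, which ran from 0.00619 to 0.274 when 1 mouse at a time was left out). All 6 mesenchyme markers had negative log2 fold changes, with a summed level of 10276 to 19574 CPM in controls and 7354 to 14353 CPM in ELA, and 3 of them (Col3a1, Lum and Postn) were lower in every ELA mouse than in every control mouse. The endothelial markers summed to 303 to 398 CPM in controls and 330 to 369.7 CPM in ELA, and the dental epithelial markers to 9533 to 15020 CPM and 7584 to 13095 CPM. The library of ELA mouse 4 held neuronal transcripts, with Zic1 at 140 CPM against at most 0.771 CPM elsewhere. The part of this tissue composition in the members' values was not tested. The titles of the mice carry 4 numbers, 2 in each group, whose meaning the labels do not give, so these numbers and the groups cannot be told apart. The study gives a lower mean body weight for the ELA pups than for the controls, with ranges of error that overlap, and calls the controls matched for weight. It also reports that its lightest ELA mice were left out of all analyses after the enamel measurements, to reduce the influence of weight. No weight of a single mouse was used here, so the part of weight in the results was not tested.

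Most of the members had a negative log2 fold change, which means a lower level in ELA than in controls, and the 3 lowest values were those of the class II genes H2-Aa, Cd74 and H2-Eb1. Of the 44 members tested, 36 had a negative and 8 a positive log2 fold change, against 47.4% negative among all genes tested, and the median over the members was -0.31 against 0.01 over all genes. In edgeR's quasi-likelihood test with Benjamini-Hochberg adjustment over all 15909 genes, 0 members passed an adjusted p of 0.05, where 10 genes in all (0.0629%) did. At an unadjusted p below 0.05, 5 members were lower in ELA (H2-Aa, H2-Ab1, H2-Eb1, Cd74 and Rsad2), where the share among all genes was 2.89%, and 0 were higher, where it was 3.56%. With DESeq2, which the study itself used, 4 members passed an adjusted p of 0.05 and were lower (H2-Aa, H2-Ab1, H2-Eb1 and Cd74), where 0.315% of the 18754 genes with an adjusted p did, while limma-voom called 0 members and placed 5, all lower, at an unadjusted p below 0.05. Of all genes, limma-voom placed 524 of 15909 lower at that threshold. Every ELA mouse was below every control mouse in the same 4 class II genes, against 1.29% of all genes tested, and in 0 members was every ELA mouse above, against 1.39%.

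**Figure D1:**
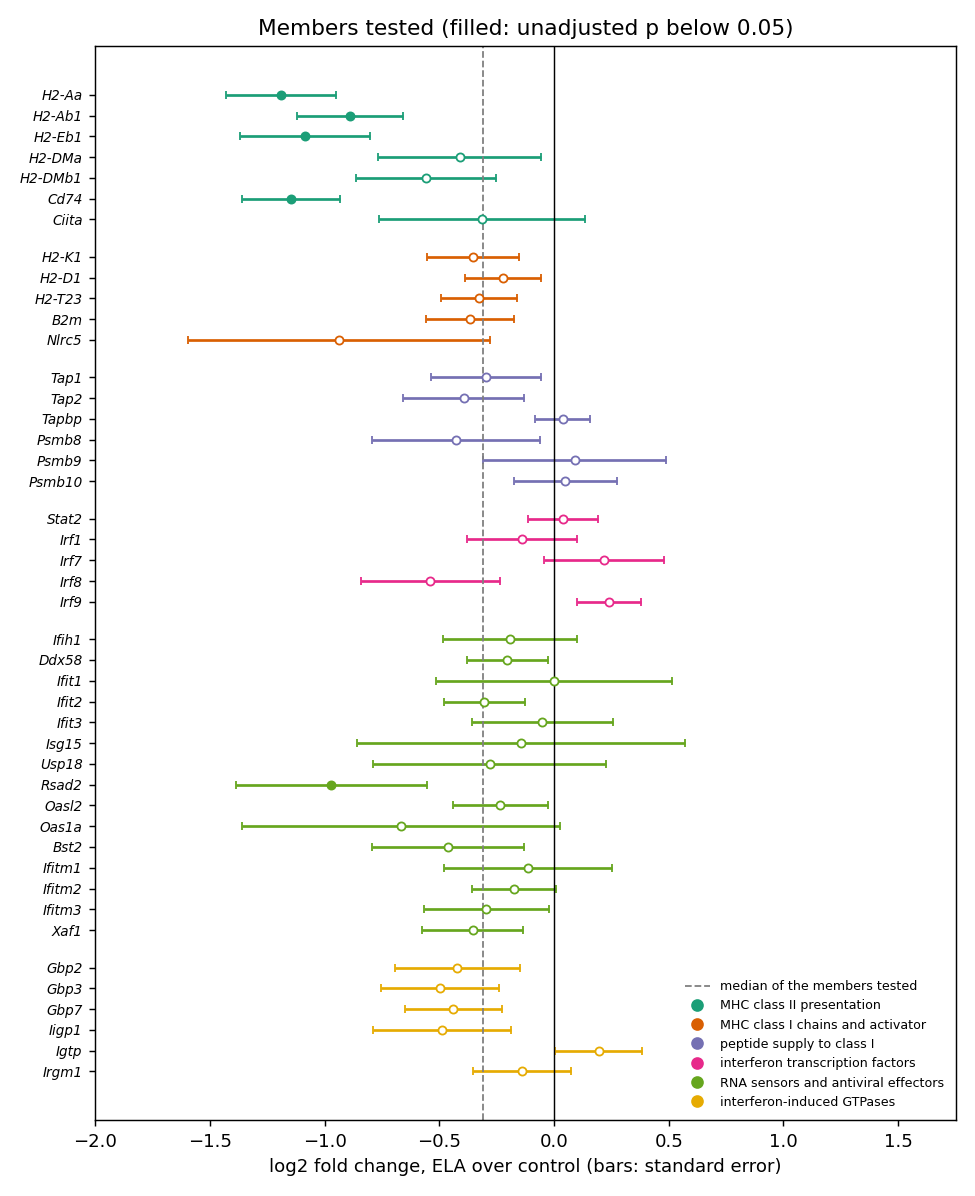
Log2 fold change of ELA over control for the 44 members tested, by role, from edgeR, with bars of 1 standard error. Filled points mark an unadjusted p below 0.05. The dashed line is the members' median of -0.31, and 4 of the 5 filled points are class II genes.

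The class II genes had 7 of 7 log2 fold changes negative and a median of -0.89. H2-Aa (ENSMUSG00000036594, chr17:34282744-34287827 on GRCm38), which encodes the alpha chain of the class II molecule I-A and has the Y box core shown in its promoter, was at 15.9, 24.3, 18.8 and 13.8 CPM in the control mice and 8.91, 11.1, 7.64, 4.72 and 7.57 CPM in the ELA mice. All ELA mice lay below all controls, with ELA mouse 4 lowest and control mouse 2 highest. The means were 18.2 ± 4.54 CPM (SD, n = 4) and 7.99 ± 2.32 CPM (SD, n = 5), a 2.28-fold lower level in ELA (log2 fold change -1.19, standard error 0.24, edgeR adjusted p = 0.130, DESeq2 adjusted p = 0.00133).

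H2-Ab1 (ENSMUSG00000073421, chr17:34263209-34269418), which encodes the I-A beta chain, was at 8.65, 10.1, 12.6 and 10.2 CPM in the controls and 4.32, 8.49, 4.73, 4.33 and 6.18 CPM in ELA. The groups did not overlap, but ELA mouse 2 came within a narrow margin of control mouse 1. The log2 fold change was -0.89 with a standard error of 0.23 (edgeR adjusted p = 0.316, DESeq2 adjusted p = 0.0485). H2-Eb1 (ENSMUSG00000060586, chr17:34305877-34316199), the beta chain gene of the class II molecule I-E, which C57BL/6 mice do not assemble because they lack its alpha chain, was at 9.65, 14.9, 15.01 and 11.8 CPM in the controls and 3.56, 7.88, 5.82, 3.89 and 9.05 CPM in ELA. Again no values crossed between groups, with ELA mice 1 and 4 lowest and ELA mouse 5 just under control mouse 1. Its log2 fold change was -1.08 with a standard error of 0.28 (edgeR adjusted p = 0.316, DESeq2 adjusted p = 0.0333).

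Cd74 (ENSMUSG00000024610, chromosome 18), the invariant chain that escorts class II molecules to the compartment where peptide is loaded, had the smallest p of all members. It was at 30.2, 30.7, 31.5 and 25.7 CPM in the controls, which were close together, and 10.9, 20.1, 11.3, 8.88 and 15.5 CPM in ELA. The ELA mice all lay below the controls and were spread over a wider range than they were, with ELA mouse 2 highest and ELA mouse 4 lowest. The means were 29.5 ± 2.61 CPM (SD, n = 4) and 13.3 ± 4.48 CPM (SD, n = 5), a 2.21-fold lower level (log2 fold change -1.15, standard error 0.21, edgeR adjusted p = 0.0962, DESeq2 adjusted p = 0.000486). Without ELA mouse 2 the edgeR adjusted p of Cd74 was 0.0232, and over the 9 fits that left out 1 mouse it reached 0.433. In each of these 9 fits the class II genes H2-Aa, H2-Ab1, H2-Eb1 and Cd74 had an unadjusted p below 0.05.

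**Figure D2:**
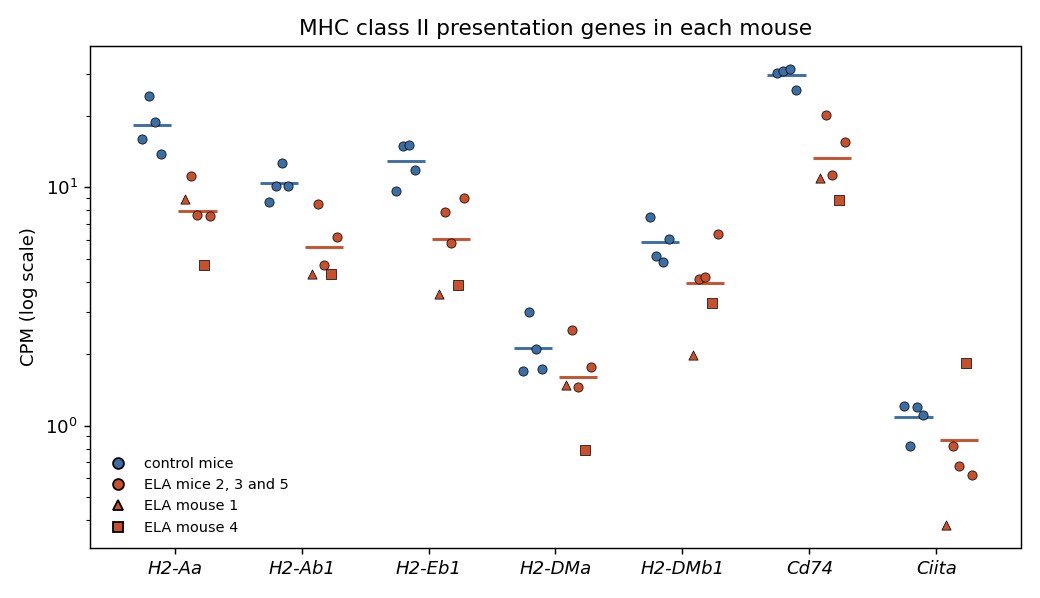
CPM on a log scale for the 7 class II presentation genes in 4 control and 5 ELA mice, where each point is a mouse and each line the group mean. The ELA points of H2-Aa, H2-Ab1, H2-Eb1 and Cd74 all lie under the control points, and those of H2-DMa, H2-DMb1 and Ciita overlap with them.

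The other class II genes were less separated. H2-DMa and H2-DMb1, which encode chains of the editor that exchanges peptides on class II molecules, had log2 fold changes of -0.41 and -0.56, with adjusted p-values of 0.972 and 0.847 in edgeR. For H2-DMb1, 4 of the 5 ELA mice were below all controls, and ELA mouse 5 was above all but 1 of them. Ciita, the coactivator that class II transcription depends on, was at 1.21, 0.819, 1.20 and 1.10 CPM in the controls and 0.383, 0.821, 0.675, 1.84 and 0.618 CPM in ELA. ELA mouse 4, the library with neuronal transcripts, was the highest of all 9 mice, ELA mouse 2 was level with the lowest control, and the other 3 ELA mice were below all controls. The log2 fold change of Ciita was -0.31 with a standard error of 0.45 (edgeR adjusted p = 0.999), and it was -0.79 without ELA mouse 4 (edgeR adjusted p = 0.878), -0.13 without ELA mouse 1 and -0.20 without ELA mouse 5. In gene span, introns included, Ciita shares 25888 bases with Dexi, a gene on the opposite strand at up to 18.5 CPM. The bases shared by the mature transcripts were not counted. The strand setting of the counting is not given, so it cannot be told how reads in the shared stretch were assigned.

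Of the 10 other genes of the class II pathway, which encode further chains, lysosomal enzymes and the RFX factors, 6 were tested and 4 had negative log2 fold changes (median -0.13). Rfx5, a subunit of the factor that binds the X box of class II promoters, was at 17.6, 18.6, 15.5 and 19.8 CPM in the controls and 13.1, 12.6, 14.2, 13.7 and 11.7 CPM in ELA. Every ELA mouse was below every control in Rfx5, as in 1.29% of all genes tested, and the log2 fold change was -0.45 (standard error 0.13, edgeR adjusted p = 0.417). Ctss, the protease that trims the invariant chain, had a log2 fold change of -0.25 (edgeR adjusted p = 0.962) and overlapping groups.

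Leukocyte transcripts were read beside the class II genes, since blood and immune cells can be taken with the tissue. The summed level of the B lymphocyte markers separated the groups. Of the 9 markers, 6 were tested and all 6 were lower in ELA at an unadjusted p below 0.05, against 2.89% of all genes. The low-count filter can pass a gene through the 4 controls alone, so the count over tested markers depends partly on high control values. The summed level of all 9, tested or not, was 26.3 to 48.4 CPM in controls and 4.90 to 13.9 CPM in ELA. Ighm, the heavy chain of immunoglobulin M, fell from 15.9, 14.8, 24.9 and 12.7 CPM in the controls to 4.21, 4.87, 7.90, 3.45 and 4.36 CPM in ELA (log2 fold change -1.79, standard error 0.27, edgeR adjusted p = 0.0477). Ms4a1, which encodes the B cell surface protein CD20, was at 3.85, 3.13, 6.45 and 2.30 CPM in the controls and 0.383, 0.931, 0.312, 0.0875 and 0.247 CPM in ELA, with a log2 fold change of -3.35 (edgeR adjusted p = 0.0570), and Cd79a was at 0 in ELA mouse 4. No control value was reached by an ELA mouse in either Ighm or Ms4a1, but leaving out 1 mouse at a time moved the edgeR adjusted p of Ighm between 0.0328 and 0.257 and that of Ms4a1 between 0.0133 and 0.274.

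The 9 macrophage markers had a median log2 fold change of -0.004 and a summed level of 210 to 293 CPM in controls and 211 to 294 CPM in ELA. All 5 general leukocyte markers had negative log2 fold changes, with summed levels of 42.0 to 59.5 CPM and 36.8 to 43.5 CPM, and Ptprc (CD45) had the smallest p among them (log2 fold change -0.50, edgeR adjusted p = 0.666). Of the 7 dendritic cell markers 4 were tested, 3 with negative log2 fold changes (median -0.41). They summed to 6.22 to 9.54 CPM in controls and 6.18 to 17.5 CPM in ELA, where the highest sum was that of ELA mouse 4 through Zbtb46 at 15.2 CPM. Of the T lymphocyte markers, 3 of 7 were tested, each with a negative log2 fold change (median -0.31), and all 7 together summed to at most 6.15 CPM in any mouse. Of the 8 neutrophil markers 7 were tested, each with a negative log2 fold change (median -0.49). Of these 7, 1 was at an unadjusted p below 0.05, where 2.89% of all genes were lower. The neutrophil markers ranged from 9.75 to 106 CPM in their sum, with the lowest and the highest both in ELA mice.

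H2-Aa, H2-Ab1, H2-Eb1 and Cd74 together were at 61.5 to 80.0 CPM in controls and 21.8 to 47.6 CPM in ELA. In each of these 4 genes every ELA mouse was below every control, so their sum had to separate the groups. Divided by the summed macrophage markers, they were at 0.262 to 0.307 in controls and 0.104 to 0.191 in ELA, and divided by the general leukocyte markers at 1.23 to 1.85 and 0.593 to 1.12. The groups stayed apart on both scales. The macrophage sums had similar ranges in the groups, so the separation of the class II sum was largely carried into that ratio. The groups also stayed apart in the ratio of Cd74 to the class I gene H2-K1, each per kilobase (FPKM), at 1.15 to 1.37 in controls and 0.590 to 0.903 in ELA. Divided by the summed B lymphocyte markers, the groups overlapped, at 1.61 to 2.87 in controls and 2.12 to 5.90 in ELA, with 4 of the 5 ELA mice above all controls. They overlapped as well when divided by the dendritic cell markers, at 6.45 to 10.4 and 1.25 to 7.56. These ratios are descriptions, and the part of B lymphocyte transcripts in the class II difference was not tested. In bulk RNA, fewer cells of a type and less RNA per cell cannot be told apart.

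**Figure D3:**
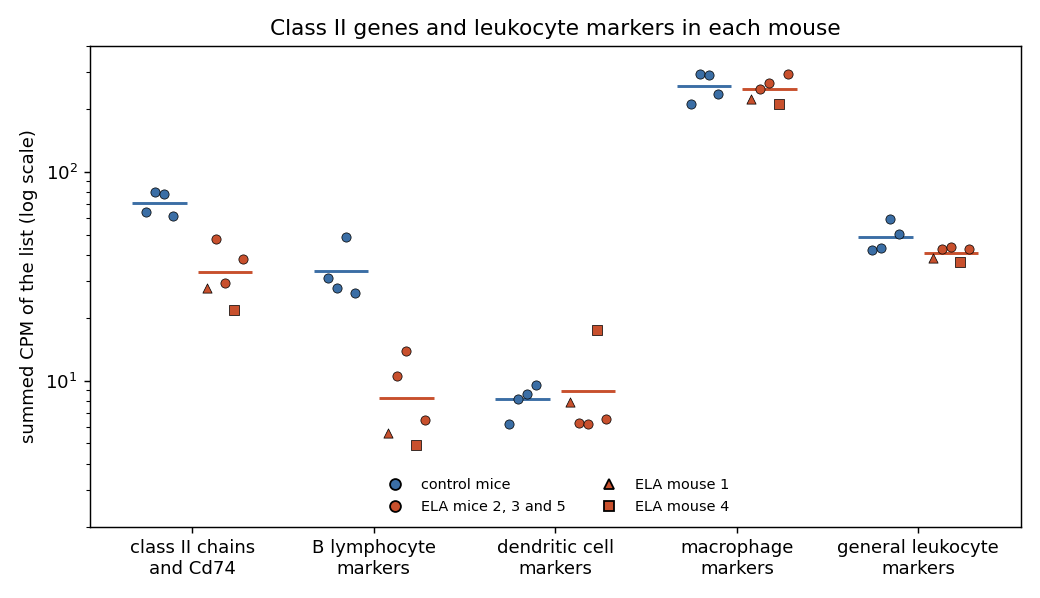
Summed CPM on a log scale of 4 class II genes (H2-Aa, H2-Ab1, H2-Eb1 and Cd74) and of the leukocyte marker lists in 4 control and 5 ELA mice, where each point is a mouse and each line the group mean. The class II sum separates the groups because each of its 4 genes does. The B lymphocyte sum also separates them, whereas the macrophage sum does not.

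The class I chains were among the most abundant members, and the 5 genes of this group had 5 negative log2 fold changes, a median of -0.35 and 0 genes at an unadjusted p below 0.05. Without ELA mice 1 and 4 this median was -0.12. Per kilobase, B2m was the highest of all members with a mean of 125 FPKM over the 9 mice, H2-D1 was at 26.9 FPKM, H2-K1 at 14.8 FPKM and H2-T23 at 12.9 FPKM, while Cd74 was at 14.6 FPKM. B2m, the light chain shared by all class I molecules, was at 114, 158, 120.3 and 97.8 CPM in the controls and 94.5, 96.8, 98.6, 63.3 and 122 CPM in ELA. ELA mouse 4 was lowest and control mouse 2 highest, and ELA mice 3 and 5 lay inside the control range. The log2 fold change was -0.37 with a standard error of 0.19 (edgeR adjusted p = 0.830), and it was -0.22 without control mouse 2 and -0.21 without ELA mice 1 and 4.

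H2-K1, a heavy chain that presents peptides to cytotoxic T cells, was at 40.7, 46.2, 48.0 and 41.4 CPM in the controls and 27.0, 41.2, 32.6, 22.9 and 48.6 CPM in ELA. ELA mice 1, 3 and 4 were below all controls and ELA mouse 5 was above all of them. Its log2 fold change was -0.35 with a standard error of 0.20 (edgeR adjusted p = 0.860), and it was -0.11 without ELA mice 1 and 4. The class I heavy chains are a family of similar sequences, and how reads that match several of them were counted is not given, so the values of single heavy chains are uncertain. H2-D1 and H2-T23 had log2 fold changes of -0.22 and -0.33.

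Nlrc5, the coactivator of class I genes, was scarce, at 0.580, 0.674, 0.851 and 1.15 CPM in the controls and 0, 0.493, 0.831, 0.219 and 0.556 CPM in ELA. With 0 counts in ELA mouse 1 and 5 counts in ELA mouse 4, the ELA values ran from none to a level inside the control range. Its log2 fold change was -0.94 with a standard error of 0.66 (edgeR adjusted p = 0.937), and -0.38 without ELA mice 1 and 4. Of the 13 other genes of the class I route, 12 were tested, 6 with negative and 6 with positive log2 fold changes, and 0 had an unadjusted p below 0.05. The smallest p-values among them were those of H2-T24 and H2-T22, nonclassical class I genes, with log2 fold changes of 0.55 and -0.17.

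The genes that supply peptides to class I had 3 of 6 log2 fold changes negative, a median of -0.13 and 0 genes at an unadjusted p below 0.05. The median was -0.070 without ELA mouse 1, -0.20 without control mouse 1 or without ELA mouse 3, and -0.015 without ELA mice 1 and 4. Tap1, a subunit of the transporter that carries peptides into the endoplasmic reticulum, was at 7.65, 8.09, 6.30 and 8.34 CPM in the controls and 3.28, 6.90, 7.84, 6.25 and 6.61 CPM in ELA. ELA mouse 1 was far below the rest, and ELA mice 2, 3 and 5 lay inside the control range. The log2 fold change was -0.30 with a standard error of 0.24 (edgeR adjusted p = 0.962), and it was -0.14 without ELA mouse 1 and -0.094 without ELA mice 1 and 4. Its partner Tap2 had a log2 fold change of -0.39 (edgeR adjusted p = 0.923). Tapbp, the tapasin that bridges class I to the transporter, was at a mean of 30.4 FPKM, with a log2 fold change of 0.037. In gene span, introns included, Tapbp shares 3421 bases with Zbtb22 on the same strand.

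Psmb8, Psmb9 and Psmb10 encode the inducible proteasome subunits that replace Psmb5, Psmb6 and Psmb7 when interferon gamma is present. Psmb8 was at 5.12, 3.95, 4.45 and 4.41 CPM in the controls and 1.97, 4.82, 3.01, 1.40 and 5.41 CPM in ELA. ELA mice 1, 3 and 4 were below all controls and ELA mouse 5 above them, for a log2 fold change of -0.43 (standard error 0.37, edgeR adjusted p = 0.971). It was -0.23 without ELA mouse 4, -0.68 without ELA mouse 5 and -0.015 without ELA mice 1 and 4. Psmb9 and Psmb10 had log2 fold changes of 0.09 and 0.049, and the 3 constitutive subunits lay between -0.019 and 0.061. Per kilobase, the inducible subunits were below the constitutive ones in every mouse, with a ratio of 0.0074 to 0.0239 for Psmb8 to Psmb5, of 0.0032 to 0.0116 for Psmb9 to Psmb6 and of 0.235 to 0.397 for Psmb10 to Psmb7.

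The transcription factors that carry the interferon signal had 2 of 5 log2 fold changes negative, a median of 0.04 against 0.01 over all genes, and 0 genes at an unadjusted p below 0.05. Stat2, a subunit of the complex that binds the ISRE, was at 13.7, 14.1, 15.4 and 16.4 CPM in the controls and 13.5, 15.5, 12.9, 19.4 and 15.1 CPM in ELA. The groups overlapped, with ELA mouse 4 highest, and the log2 fold change of 0.039 (standard error 0.15, edgeR adjusted p = 0.999) turned to -0.018 with plain library totals and to -0.063 without ELA mouse 4. Irf7, the factor that amplifies type I interferon production, was at 3.90, 3.52, 2.15 and 3.07 CPM in the controls and 3.61, 4.87, 2.75, 3.89 and 3.27 CPM in ELA. Its values overlapped, for a log2 fold change of 0.22 (standard error 0.26, edgeR adjusted p = 0.999) that was 0.073 without control mouse 3 and 0.099 without ELA mouse 2. In gene span, Irf7 shares 45 bases with Phrf1 on the opposite strand.

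Irf8, a factor of the macrophage, dendritic and B lymphocyte lineages, was at 3.27, 4.24, 5.00 and 4.12 CPM in the controls and 1.42, 3.45, 3.48, 2.19 and 3.74 CPM in ELA. ELA mice 1 and 4 were lowest, and the other 3 ELA mice lay inside the control range. The log2 fold change was -0.54 with a standard error of 0.30 (edgeR adjusted p = 0.857), and it was -0.22 without ELA mice 1 and 4. Irf9, the DNA-binding partner of Stat2, and Irf1 had log2 fold changes of 0.24 and -0.14.

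Upstream of these factors, the ligands were at the detection limit. Of 9 interferon genes, 7 (Ifnb1, Ifna1, Ifna2, Ifna4, Ifne, Ifnl2 and Ifnl3) had 0 counts in all 9 libraries. That allows up to 0.0934 to 0.166 CPM depending on the library (3 counts, counting error only), here on plain library totals without TMM factors. Ifng and Ifnk, with TMM factors, did not exceed 0.0959 CPM in any mouse. All 15 genes of receptors and signalling were tested, 12 with negative and 3 with positive log2 fold changes (median -0.04). Irf5, a factor of macrophages and other myeloid cells, was the only gene of the 15 at an unadjusted p below 0.05, and it was higher in ELA. Among all genes tested, 2.89% were lower and 3.56% higher at that threshold. Irf5 was at 9.18, 7.80, 9.11 and 10.2 CPM in the controls and 13.7, 11.4, 13.0, 10.7 and 12.9 CPM in ELA. Every ELA mouse was above every control in Irf5, as in 1.39% of all genes tested, and the log2 fold change was 0.44 (standard error 0.15, edgeR adjusted p = 0.564). Ifngr1, a chain of the interferon gamma receptor, had the next smallest p with a log2 fold change of -0.19 (edgeR adjusted p = 0.947).

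The RNA sensors and antiviral effectors had 14 of 15 log2 fold changes negative and a median of -0.23, and 1 of the 15 (Rsad2) had an unadjusted p below 0.05. Of the 37 members tested outside class II presentation, Rsad2 was the only 1 lower at that threshold. This is near the share among all genes tested, 2.89%. Rsad2 (ENSMUSG00000020641, chr12:26442746-26456452), which encodes viperin, an enzyme that makes a chain-terminating nucleotide, was at 3.06, 1.73, 3.85 and 1.58 CPM in the controls and 1.97, 1.48, 1.40, 0.481 and 1.20 CPM in ELA. Its promoter holds the single ISRE core shown. Control mice 1 and 3 were high, 4 of the 5 ELA mice were below all controls, and ELA mouse 1 lay inside the control range. The means were 2.56 ± 1.09 CPM (SD, n = 4) and 1.31 ± 0.541 CPM (SD, n = 5), for a log2 fold change of -0.97 (standard error 0.42, edgeR adjusted p = 0.716, DESeq2 adjusted p = 0.559). Its unadjusted p was below 0.05 in 4 of the 9 fits that left out 1 mouse, and its log2 fold change was -0.70 without control mouse 3.

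Isg15, a ubiquitin-like protein attached to other proteins after interferon, whose promoter holds the 3 overlapping ISRE cores shown, was at 1.16, 1.01, 1.40 and 1.01 CPM in the controls and 0.109, 1.92, 1.51, 0.0875 and 1.54 CPM in ELA. ELA mice 2, 3 and 5 were above all controls and ELA mice 1 and 4, with 2 counts each, were far below them. The log2 fold change of -0.14 (standard error 0.72, edgeR adjusted p = 0.999) combined both, and it was 0.53 without ELA mice 1 and 4. Ifitm3, a membrane protein that blocks virus entry, was one of the most abundant members per kilobase with a mean of 80.8 FPKM. It was at 47.6, 71.5, 59.2 and 65.9 CPM in the controls and 34.0, 53.3, 59.1, 26.1 and 76.3 CPM in ELA. ELA mice 1 and 4 were again lowest and ELA mouse 5 was highest of all, for a log2 fold change of -0.29 (standard error 0.27, edgeR adjusted p = 0.981), which was 0.047 without ELA mice 1 and 4.

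The other sensors and effectors had log2 fold changes from -0.67 (Oas1a, which makes the activator of an RNA-cutting enzyme) to 0.00095 (Ifit1, which binds viral RNA), with overlapping groups in each. Among them, the sensors Ifih1 (MDA5) and Ddx58 (RIG-I) were at -0.19 and -0.20, and the tether Bst2, which holds virus particles at the cell surface, at -0.46. Xaf1, a gene linked to cell death, was at -0.35, and the remaining members of the group (Ifit2, Ifit3, Usp18, Oasl2, Ifitm1 and Ifitm2) lay between -0.30 and -0.051.

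The interferon-induced GTPases, which attack the vacuoles of intracellular microbes, had 5 of 6 negative log2 fold changes and a median of -0.43, with 0 at an unadjusted p below 0.05. Gbp2 was at 5.22, 5.92, 5.15 and 3.21 CPM in the controls and 2.52, 3.01, 3.90, 5.29 and 3.46 CPM in ELA. Control mice 1 to 3 and ELA mouse 4 were above 5 CPM and the other mice were below 4 CPM, and the log2 fold change was -0.42 with a standard error of 0.27 (edgeR adjusted p = 0.908). Gbp7, Gbp3 and Iigp1 had log2 fold changes of -0.44, -0.50 and -0.49, and Gbp7 and Gbp3 each had 4 of 5 ELA mice below all controls. The Gbp genes on chromosome 3 are similar in sequence, so that their reads may be split between them.

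Igtp (Irgm3) was the GTPase gene with a positive value, at 9.02, 9.73, 12.5 and 9.92 CPM in the controls and 15.6, 10.8, 13.2, 9.53 and 9.73 CPM in ELA. ELA mice 1 and 3 were above all controls and the others lay inside their range, for a log2 fold change of 0.20 (standard error 0.19, edgeR adjusted p = 0.985) that was 0.077 without ELA mouse 1. In gene span, introns included, Igtp shares 7974 bases with Irgm2 on the same strand. Irgm1 was at -0.14 on the log2 scale.

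A wider list of interferon-induced genes was read beside the members. Of these 47 genes, 34 were tested, 24 with negative and 10 with positive log2 fold changes (median -0.22), and 0 passed the adjusted p of 0.05 in edgeR or DESeq2. At an unadjusted p below 0.05, 4 were lower (Ly6e, Gbp4, Isg20 and Nmi) and 1 was higher (Cmpk2), where the shares among all genes were 2.89% and 3.56%. Every ELA mouse was below every control in 3 of the 34 and above in 1 (Cmpk2), against 1.29% and 1.39% of all genes tested. Ly6e, a lipid-anchored surface protein, was at 60.9, 66.2, 70.4 and 67.6 CPM in the controls and 42.1, 54.9, 38.6, 34.8 and 55.2 CPM in ELA. The groups did not overlap, and the log2 fold change was -0.55 with a standard error of 0.15 (edgeR adjusted p = 0.371). Gbp4, a relative of the Gbp members, also had non-overlapping groups and a log2 fold change of -0.99 (edgeR adjusted p = 0.417). Cmpk2, a nucleotide kinase whose gene lies beside Rsad2, was at 3.32, 3.47, 3.05 and 3.16 CPM in the controls and 3.56, 3.504, 5.71, 5.38 and 5.31 CPM in ELA, where its neighbour Rsad2 had a negative log2 fold change. Its own log2 fold change was 0.53 (edgeR adjusted p = 0.737).

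**Figure D4:**
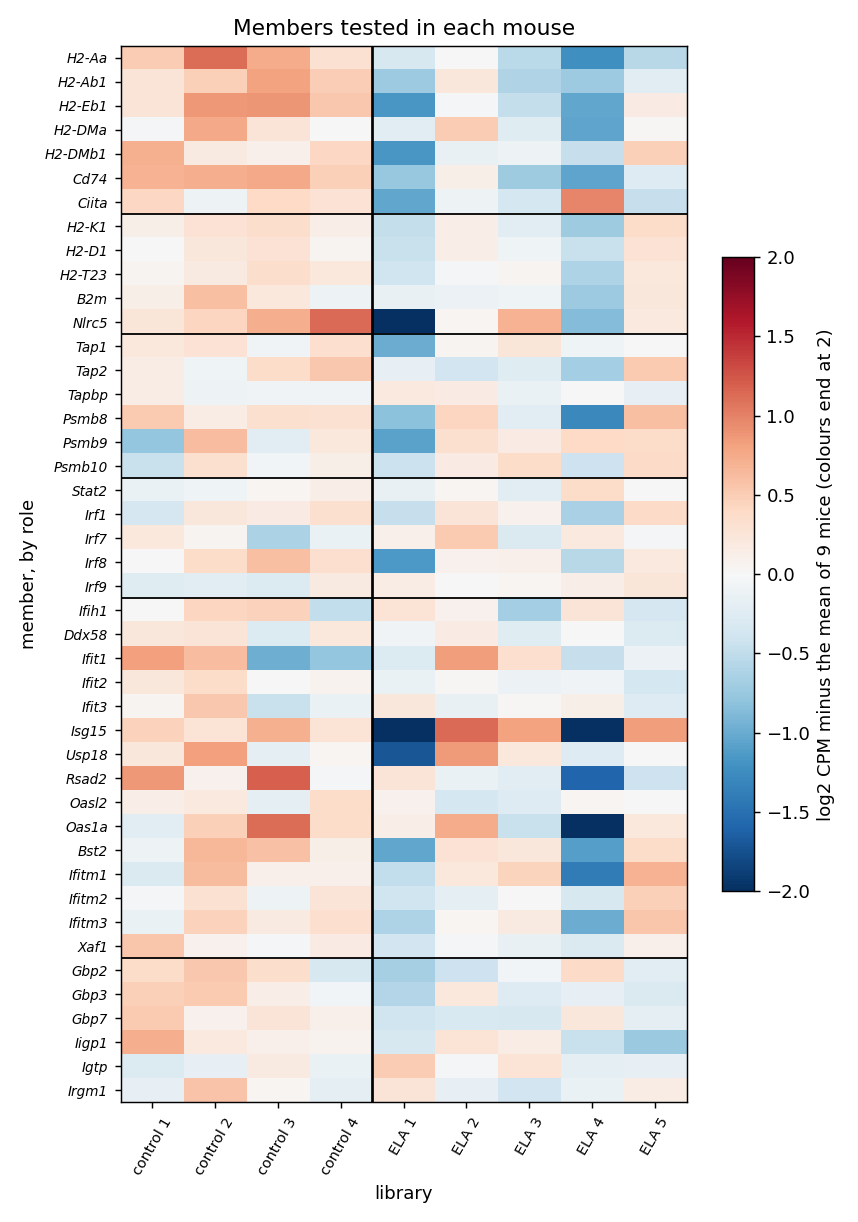
Log2 CPM minus the mean of the 9 mice for the 44 members tested, with rows by role and a column per mouse, and a colour scale that ends at 2 in either direction. The class II rows are above the mean in most control columns, and ELA mice 1 and 4 hold many of the darkest blue cells in the other rows.

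The spread of the mice differed between the roles, and no difference in spread was tested. Outside class II, the median deviation of the 37 members from the mean of the 9 mice, in log2 CPM, was between 0.12 and 0.30 in the controls, and -0.39, 0.083, -0.047, -0.33 and 0.15 in ELA mice 1 to 5, with SDs of 0.086 (n = 4) and 0.24 (n = 5). By role, the SD was larger in ELA for the class I genes (0.12 in controls and 0.38 in ELA) and their peptide supply (0.14 and 0.39), about the same for the transcription factors (0.13 and 0.13) and for the sensors and effectors (0.18 and 0.19), and smaller in ELA for the GTPases (0.24 and 0.10). For the 7 class II genes it was 0.41, 0.73, 0.74 and 0.42 in the controls and -0.76, -0.0088, -0.47, -1.04 and -0.22 in ELA. ELA mice 1 and 4 were thus lowest in both sets, and ELA mouse 5 was inside the control range outside class II, with ELA mice 2 and 3 below it. In class II all 5 ELA mice were below the control range. Of the 44 members, 22 had ELA mice 1 and 4 as their lowest ELA values, against 20.9% of all genes tested.

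The same libraries differed in the balance of short and long genes. Protein-coding genes were put in 4 length classes of about equal size, the shortest of up to 2789 bases and the longest of at least 6783 bases. The median deviation of the shortest class minus that of the longest, in log2 CPM, was -0.18, 0.22, 0.14 and 0.035 in the controls and -0.39, 0.065, 0.20, -0.49 and 0.45 in ELA. ELA mice 1 and 4 were the lowest of all and ELA mouse 5 the highest. Of the members, 21 are in the shortest class, the class II genes other than Ciita among them, and 44.6% of all genes in that class had ELA mice 1 and 4 as their lowest ELA values. With ELA mice 1 and 4 left out, a choice made after the data were seen, the median over the members was -0.19, the log2 fold changes of H2-Aa, H2-Ab1, H2-Eb1 and Cd74 were -1.05, -0.68, -0.75 and -0.92, and 6 members were lower at an unadjusted p below 0.05 with 0 past the adjusted p. Of all genes in that fit, 598 of 16024 were lower at an unadjusted p below 0.05. The part of the length balance in the members' values was not tested further.

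**Figure D5:**
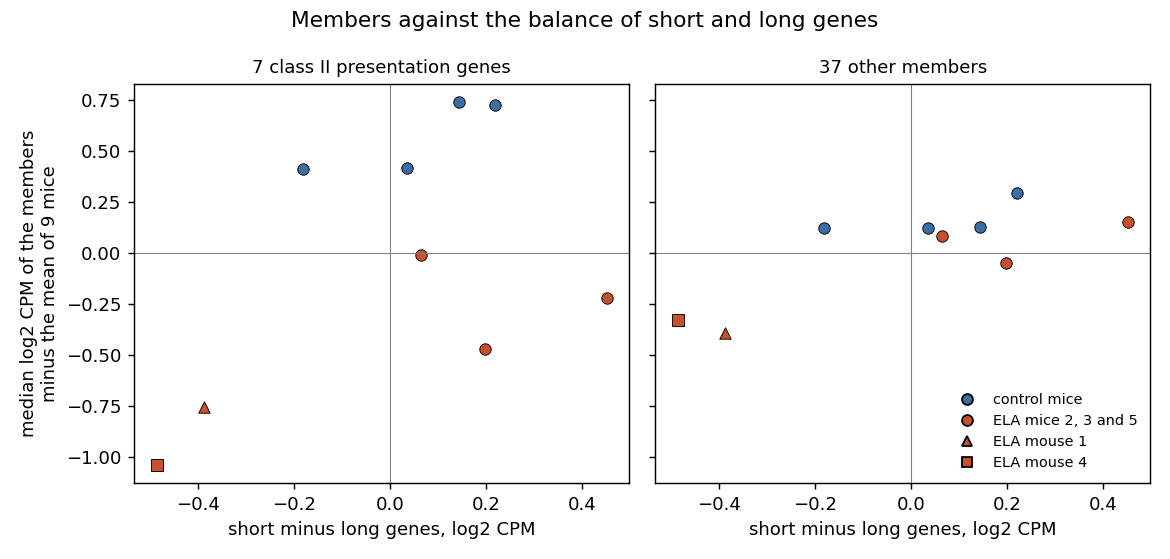
Median log2 CPM of the members minus the mean of the 9 mice, for 7 class II genes (left) and the 37 other members (right), against the median of short minus long genes in log2 CPM, where each point is a mouse. ELA mice 1 and 4 are at the lower left in both panels, and on the left every ELA mouse lies under all controls.

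The members are unevenly placed in the genome. The MHC region of chromosome 17, at 33915899 to 36032855 on GRCm38, holds 13 of the 45, among them all class II chains and the transporter genes, and the remaining members lie on 14 other chromosomes. By gene span, introns included, overlap with another annotated gene was found for 20 members, in 14 of them with a gene on the opposite strand. The 4 genes with no overlap between the groups comprise 3 from the MHC region, H2-Aa, H2-Ab1 and H2-Eb1, and Cd74, which lies outside it. The other 10 members of the MHC region had log2 fold changes from -0.56 (H2-DMb1) to 0.09 (Psmb9), with overlapping groups in each.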

How the data were processed

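RNA of 9 enamel organ libraries, 5 ELA and 4 control, was compared, with groups from the labels. The counts deposited by the authors are whole numbers per Ensembl gene and were produced by a sequencing company. Per the submitters' processing notes the tools were CASAVA, HISAT and HISAT2, with no version named. Genome build, counting program and strandedness were not given in the sources used here. Of the 54532 genes, 98.2% have the same coordinates in GENCODE M21, so positions are on GRCm38. Gene lengths in the deposited table were used for FPKM, here CPM per kilobase. No column of sample values was left unassigned, and the authors' table holds no other measurement that was used.

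Counts were fitted with edgeR 4.0.16 in R 4.3.3: filterByExpr with a count minimum of 10, TMM, robust glmQLFit and two-sided glmQLFTest, with Benjamini-Hochberg adjustment over the 15909 genes tested and a threshold of 0.05. The standard error is the size of the log2 fold change divided by the square root of the F statistic. DESeq2 1.42.0, limma-voom 3.58.1, other size factors, other filters, each mouse left out in turn and sums over title numbers were the alternatives, and the scripts were tested on simulated data. Log2 CPM used a prior count of 2. Within a group, chi-square per degree of freedom between pairs of libraries was 21.0 to 137, well above sampling noise, and each mouse was taken as a replicate. The housing was applied to whole cages of a dam and her litter, so pups of the same litter are not independent units. The litter of each sequenced pup is not given in the sources used here. For its qPCR, the study drew control males and ELA males from 2 litters each, with the same group sizes as here. Whether those were the sequenced pups is not stated. Depth sets counting error only, and a count of 0 allows up to 3 counts.

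The members, the role groups, the other lists and the tests were chosen with earlier results of these data known. Given in full are members with an unadjusted edgeR p below 0.05 or with groups that do not overlap, and Cd74, H2-Aa, Ciita, H2-K1, B2m, Nlrc5, Tap1, Psmb8, Stat2, Irf7, Irf8, Isg15, Ifitm3, Gbp2 and Igtp for their roles; of other lists, the genes with the smallest p. Promoters came from the RefSeq table of GRCm38.p6.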

Additional observations from a re-analysis of the deposited data

Results flagged for a closer look

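Over the 45 members and both groups, 90 sets of values were looked at, and 4 held a mouse whose gap to the nearest other mouse took up most of the range of its group, where chance gives about 1 in 20 sets. In the controls, Tapbp was at 111 CPM in mouse 1 against 93.2 to 95.5 CPM in the other mice, and Irf9 was at 18.5 CPM in mouse 4 against 13.5 to 13.9 CPM. Ddx58 was at 7.004 CPM in control mouse 3 against 9.83 to 10.2 CPM in the other controls. In ELA, Psmb9 was at 0.711 CPM in mouse 1 against 1.82 to 2.14 CPM in the other mice. None of these 4 genes had an unadjusted p below 0.05 in edgeR.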

How the results depend on the processing

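In edgeR, 6 genes were higher and 4 lower past the adjusted p, and these counts became 79 and 59 with DESeq2, 2 and 2 with plain library totals, 22 and 16 with no filter on low counts, 3 and 0 with counts summed over title numbers, and 0 and 0 with ELA mice 1 and 4 left out, which was chosen after the data were seen. Leaving out 1 mouse at a time gave 0 to 16 higher and 0 to 9 lower. Members lower past the adjusted p numbered 0 in edgeR, 4 in DESeq2, 2 with no filter (Cd74 and H2-Aa) and 0 to 1 with 1 mouse left out. Members lower at an unadjusted p below 0.05 numbered 5, 8 with sums over title numbers and 4 to 10 with 1 mouse left out (10 without ELA mouse 5), and those higher 0 to 1. Of all genes, 459 of 15909 were lower at this threshold in edgeR with all mice and 511 of 17629 with sums over title numbers. With 1 mouse left out, 323 to 590 genes were lower (590 of 15712 without ELA mouse 5) and 366 to 711 higher. Members with every ELA mouse below every control numbered 4 to 7 with 1 mouse left out (7 without control mouse 3 or without ELA mouse 5). The share of all genes was not counted for these smaller sets of mice, in which separation is easier to reach. The median of the GTPases ran from -0.52 to -0.32 (-0.32 without control mouse 1). Log2 fold changes changed sign in 3 of the genes given in full. Stat2 was at -0.018 with plain totals, -0.034 without ELA mice 1 and 4, and between -0.063 (without ELA mouse 4) and 0.097 with 1 mouse left out, with -0.00087 without control mouse 1. Isg15 was at 0.53 without ELA mice 1 and 4, and between -0.47 and 0.16 with 1 mouse left out (0.14 without ELA mouse 1, 0.16 without ELA mouse 4). Ifitm3 was at 0.047 without ELA mice 1 and 4. The cause of these shifts was not tested. The log2 fold changes of H2-Aa, H2-Ab1, H2-Eb1 and Cd74 stayed negative under all 18 alternatives. With counts summed over title numbers, their edgeR adjusted p-values were 0.305, 0.495, 0.204 and 0.177. No paired analysis was possible because the title numbers of ELA and control mice differ and the replicate numbers here only follow accession order. Counts of a few reads, as for Isg15, Nlrc5 and Mx1, limit what can be read from single mice.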
